A study of Homo sapiens with 9 samples.

Results

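Fibroblast growth factor (FGF) signaling is described here through 9 genes of the 58735 counted in each library. They are the ligands FGF19, FGF21, FGF2 and FGF18, the receptors FGFR1, FGFR2, FGFR3 and FGFR4, and KLB, which encodes the coreceptor β-klotho. The 9 genes were chosen by name with measured values of these libraries already known, among them the fold changes of FGF19 and FGFR1 in Ako-3 cells. The levels and fold changes of the 9 genes are therefore a description and carry no test. Polyadenylated RNA was sequenced from Huh-7 control cells, a human hepatoma line labelled wild type, from Ako-3 cells and from Mko-3 cells, with 3 libraries per group and 9 in all. Ako-3 is 1 clone of Huh-7 with a CRISPR/Cas9 knockout of APOB, the structural protein of lipoproteins secreted by the liver. Mko-3 is 1 clone of Huh-7 with a knockout of MTTP, the lipid transfer protein that loads lipid onto apolipoprotein B. Cells of all groups were grown in DMEM with fetal bovine serum and then kept overnight in medium without serum before RNA was taken. Because each knockout is 1 clone, a difference between a clone and control cells that the knockout did not cause cannot be told apart from one that it did.

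FGF ligands signal through receptor tyrosine kinases that pass the signal by adaptor proteins to a cascade of kinases in the cell and induce their own inhibitors, among them the Sprouty proteins and the dual specificity phosphatases. Most FGFs act locally and bind their receptors together with heparan sulfate, whereas FGF19 and FGF21 bind heparan sulfate weakly, circulate as hormones and need KLB beside the receptor. FGF19 is released by the intestine in response to bile acids and acts on hepatocytes through FGFR4 and KLB to lower bile acid synthesis, while FGF21 is made by the liver under fasting and cellular stress.

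Total counts on genes ranged from 14638727 to 20179760 per library, and levels were compared between libraries as CPM, counts scaled to library size with TMM factors, and between genes as the deposited FPKM, which also divides by gene length. The targeted genes were checked first. APOB had 3354 ± 609 CPM in control cells, 1315 ± 91.2 CPM in Ako-3 cells and 3258 ± 147 CPM in Mko-3 cells, and MTTP had 634 ± 29.7, 572 ± 29.3 and 87.0 ± 3.86 CPM (SD, n = 3 libraries each, here and below). The summed CPM of 9 hepatocyte markers, ALB and AFP among them, was 18364 to 18856 in control, 22153 to 23280 in Ako-3 and 18406 to 19298 in Mko-3 libraries. The summed CPM of 4 endothelial markers was 76.1 to 86.6 in control, 105 to 114 in Ako-3 and 55.1 to 60.4 in Mko-3 libraries, most of it from PECAM1, and KDR had no count in any library. The summed CPM of 4 leukocyte markers was 5.08 to 6.98, 9.83 to 11.1 and 6.23 to 8.16, nearly all from CD14, and CD68 had no count. The part of these markers in the levels of the FGF genes was not tested. With 3 libraries against 3, an exact permutation test of a single value cannot give a p under 0.1, and the 3 libraries of a clone measure the spread between cultures of the same cells. The control libraries serve both knockouts, so values of the comparisons with control share those libraries.

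A gene is named as called where its log2 fold change was 1 or more in either direction and the p of edgeR's quasi-likelihood test, adjusted over all genes tested by Benjamini-Hochberg, was 0.05 or less. In Ako-3 against control cells 8.52% of 15787 genes were called, 3.52% higher and 5% lower, and in 57.8% the libraries of both groups did not overlap in CPM. In Mko-3 against control cells 11% of 15745 genes were called, 3.82% higher and 7.22% lower, and 60.7% did not overlap. In Mko-3 against Ako-3 cells 5.73% of 15528 genes were called, 2.26% higher and 3.47% lower, and 49.6% did not overlap. Among the FGF ligands, receptors and KLB, 8 genes passed the filter on low counts in each comparison with control and 7 between the clones. Past both thresholds lay FGF19, FGF21, FGF2 and FGFR1 in Ako-3 cells, FGF21 and FGFR1 in Mko-3 cells, and FGF19 and FGFR1 between the clones. These genes were picked with such results known, so nothing is read from the number that passed.

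FGF19 (ENSG00000162344, hg38 chromosome 11, 69698232 to 69704642, minus strand), the bile acid induced hormone, had the highest FPKM of the ligands in every group. It had 47.8, 43.1 and 46.8 CPM in the control libraries, 17.2, 14.1 and 14.4 CPM in the Ako-3 libraries, and 31.8, 31.6 and 30.1 CPM in the Mko-3 libraries. Control libraries were the highest, Ako-3 libraries the lowest and Mko-3 libraries lay between them, with no overlap between any of the groups. The log2 fold change was -1.60 (SE 0.10) in Ako-3 and -0.57 (SE 0.08) in Mko-3 cells, that is 3.04-fold and 1.48-fold lower than in control cells. Mko-3 cells had 2.05-fold more FGF19 than Ako-3 cells, a log2 fold change of 1.03 (SE 0.09) that lay at 0.98 without Ako-3 replicate 2 and just under 1 without Ako-3 replicate 3. In RNA from whole cultures, fewer cells that make a transcript and less of it per cell cannot be told apart.

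FGF21 (ENSG00000105550, hg38 chromosome 19, 48755559 to 48758333, plus strand), the hormone of fasting and cellular stress, was near the limit of detection. Its raw counts were 24, 15 and 25 in control, 3, 1 and 6 in Ako-3, and 2, 0 and 1 in Mko-3 libraries. Every control library was above every library of the clones, and the clones overlapped each other. Relative to control the log2 fold change in Ako-3 cells was -2.67 (SE 0.51), which depended on single libraries and was -3.38 without Ako-3 replicate 3 and -2.17 without Ako-3 replicate 2. All Mko-3 libraries were at the floor of 3 counts, so the fitted fold change, which depends there on the prior count, is not given for them. Over the summed counts of 64 in control and 3 in Mko-3 cells, control was 20.8 times higher, with an exact 95% interval of 6.80 to 104 that covers counting error only.

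The sequence upstream of FGF21 is shown because its regulators were among the genes compared below. RefSeq promoter windows of GRCh38.p14 ran from 250 bases before to 50 bases after a gene's start. They were matched for 7 of the 9 genes in 12 windows, with none for FGF19 or FGFR1. They were searched on both strands for TTGCATCA, a core of the amino acid response elements that ATF4 and its partners bind, for TGACGTCA, the cyclic AMP response element, for CACGTG, an E-box, and for AGGTCA, a nuclear receptor half-site. The 250 bases before the FGF21 start, chr19:48755274-48755523 on the plus strand, hold TTGCATCA once, printed in capitals:
FGF21: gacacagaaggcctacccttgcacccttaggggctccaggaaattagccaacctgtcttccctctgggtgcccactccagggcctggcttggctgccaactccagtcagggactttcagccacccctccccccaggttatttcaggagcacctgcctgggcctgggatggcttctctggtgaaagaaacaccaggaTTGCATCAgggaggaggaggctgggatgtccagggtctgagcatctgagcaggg
TTGCATCA was found in 304 of 35116 promoter windows, or 0.866%, and of the windows matched here it was found only in that of FGF21. CACGTG, present in 7.26% of windows, was found in 1 window of FGFR4, and AGGTCA, present in 13.8%, in 1 window of FGFR2. TGACGTCA, present in 1.85% of windows, was found in none of the 12. These matches are letters in a window and were not tested for binding.

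FGF2 (ENSG00000138685, hg38 chromosome 4, 122826708 to 122898236, plus strand), a heparin-binding growth factor that acts locally, was low in all groups. It had 3.60, 2.18 and 3.05 CPM in control, 0.733, 1.32 and 1.22 CPM in Ako-3, and 1.53, 1.43 and 2.09 CPM in Mko-3 libraries. Control libraries were the highest and Ako-3 libraries the lowest, without overlap, although the highest Mko-3 library lay just under the lowest control library. The log2 fold change was -1.43 (SE 0.29) in Ako-3 cells, -0.84 (SE 0.27) in Mko-3 cells and 0.60 (SE 0.33) between the clones. FGF2 overlaps NUDT6 on the opposite strand over 9540 bases, and NUDT6 had 64 to 88 counts in control, 34 to 68 in Ako-3 and 22 to 36 in Mko-3 libraries. As the library preparation used dTTP in the second strand, which does not mark strand, and the strand setting of the counting is not given in the sources used here, the level of FGF2 is uncertain where the genes overlap. FGF18 (ENSG00000156427, hg38 chromosome 5, 171419656 to 171457623, plus strand), another local ligand, had 0, 0 and 1 counts in control, 1, 0 and 2 in Ako-3, and 2, 2 and 3 in Mko-3 libraries. All 9 libraries were at or under the floor of 3 counts, so FGF18 was not detectable above background at this depth in any group and has no fold change.

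**Figure D1:**
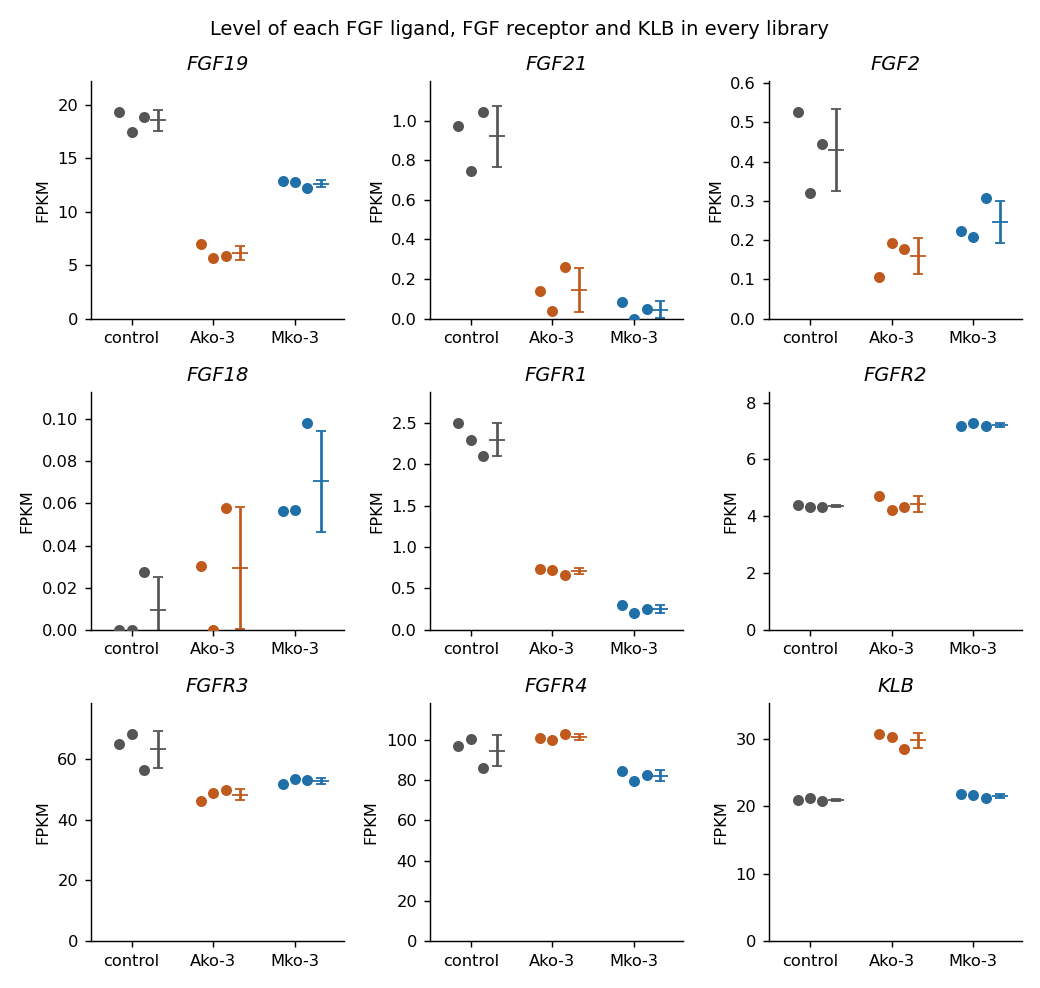
Deposited FPKM (vertical axes, each from 0) of the 4 ligands, 4 receptors and KLB in the control, Ako-3 and Mko-3 libraries. Each point is 1 library and the bar beside it is the mean ± SD of 3, drawn down to 0 at most. FGF19 falls into 3 separate levels, FGFR1 is lowest in Mko-3, FGFR2 is highest in Mko-3 and KLB is highest in Ako-3 libraries.

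FGFR1 (ENSG00000077782, hg38 chromosome 8, 38400215 to 38468834, minus strand), the receptor through which FGF21 mainly acts when KLB is present, had lower levels in both clones. It had 34.9, 32.0 and 29.5 CPM in control, 10.3, 10.1 and 9.32 CPM in Ako-3, and 4.19, 2.80 and 3.52 CPM in Mko-3 libraries. The 3 groups were separate, in the order control, Ako-3 and Mko-3. Against control the log2 fold change was -1.71 (SE 0.10) in Ako-3 cells and -3.21 (SE 0.14) in Mko-3 cells, which is 3.26-fold and 9.22-fold lower, and between the clones it was -1.50 (SE 0.16). Mko-3 cells were thus lower than Ako-3 cells in FGFR1 but higher in FGF19. FGFR1 overlaps LETM2 on the opposite strand over 9313 bases. LETM2 had 69 to 103 counts in control, 29 to 48 in Ako-3 and 28 to 50 in Mko-3 libraries, and FGFR1 had 485 to 650, 161 to 199 and 49 to 74, so in Mko-3 libraries the counts of both genes were of similar size and the level of FGFR1 there is the most uncertain.

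FGFR2 (ENSG00000066468, hg38 chromosome 10, 121478334 to 121598458, minus strand), a receptor with splice forms for epithelial and mesenchymal ligands, was higher in Mko-3 cells. It had 33.6, 33.1 and 33.1 CPM in control, 36.3, 32.3 and 33.2 CPM in Ako-3, and 54.9, 55.8 and 54.6 CPM in Mko-3 libraries. Control and Ako-3 libraries overlapped and Mko-3 libraries were above both. The log2 fold change was 0.02 (SE 0.08) in Ako-3 cells, 0.72 (SE 0.07) in Mko-3 cells and 0.70 (SE 0.07) between the clones. Counts per gene do not separate the splice forms. Biliary markers did not move one way in Mko-3 cells. Of 5 markers 4 were tested, and KRT19 (log2 fold change 2.92, adjusted p = 1.8e-16), SPP1 (2.89, adjusted p = 1.0e-08) and EPCAM (1.17, adjusted p = 4.3e-11) were called higher in the edgeR fit, while SOX9, the most abundant of them in CPM, stood at -0.41 (SE 0.06, adjusted p = 1.4e-05). The summed biliary markers had 423 to 463 CPM in control, 393 to 409 CPM in Ako-3 and 518 to 528 CPM in Mko-3 libraries, with KRT7 at 0 throughout, and their part in the level of FGFR2 was not tested.

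FGFR3 and FGFR4 had the highest FPKM of the receptors in every group. FGFR3 (ENSG00000068078, hg38 chromosome 4, 1793293 to 1808872, plus strand) had 319, 334 and 277 CPM in control, 227, 240 and 245 CPM in Ako-3, and 253, 262 and 260 CPM in Mko-3 libraries. All libraries of both clones were below all control libraries, with log2 fold changes of -0.39 (SE 0.07) in Ako-3 and -0.27 (SE 0.07) in Mko-3 cells. FGFR4 (ENSG00000160867, hg38 chromosome 5, 177086886 to 177098144, plus strand), the hepatocyte receptor of FGF19, had 474, 490 and 421 CPM in control, 495, 490 and 502 CPM in Ako-3, and 413, 388 and 401 CPM in Mko-3 libraries. In CPM the lowest Ako-3 library was barely above the highest control library, and all Mko-3 libraries were below the control libraries. The log2 fold change of FGFR4 was 0.09 (SE 0.06) in Ako-3 and -0.22 (SE 0.06) in Mko-3 cells. With library size alone as the scaling, the log2 fold change of FGFR2 in Ako-3 cells became -0.08 and that of FGFR4 about 0, so neither has a direction in that clone.

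KLB (ENSG00000134962, hg38 chromosome 4, 39406853 to 39451536, plus strand), the coreceptor of both hormones, was higher in Ako-3 cells. It had 129, 130 and 128 CPM in control, 189, 186 and 175 CPM in Ako-3, and 134, 133 and 130 CPM in Mko-3 libraries. Ako-3 libraries were above all others, and Mko-3 libraries exceeded control libraries by little. The log2 fold change of KLB was 0.50 (SE 0.06) in Ako-3 cells, 1.42-fold higher, and 0.03 (SE 0.06) in Mko-3 cells. In Mko-3 cells it became -0.04 with library size alone.

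**Figure D2:**
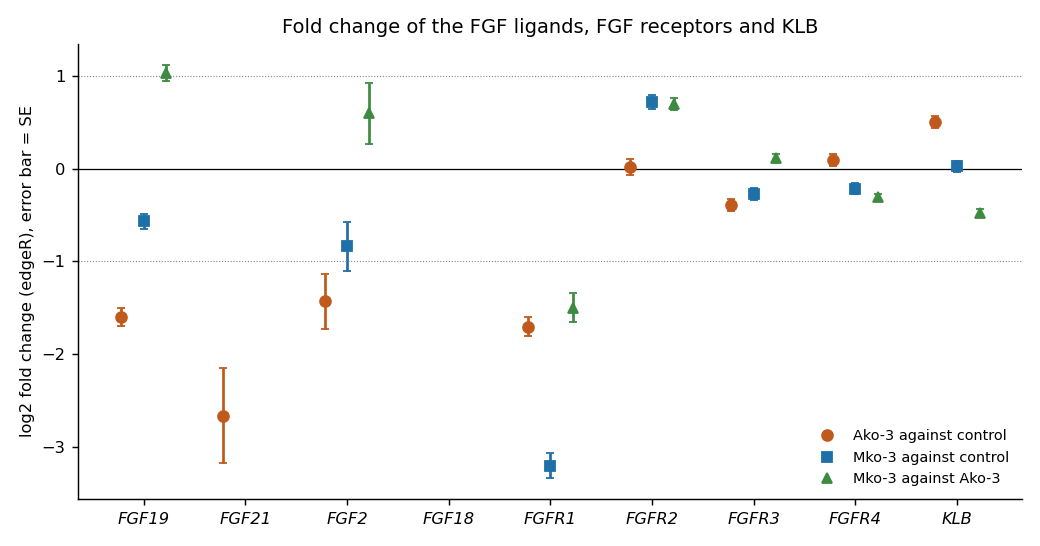
Log2 fold change from the edgeR fits (vertical axis) of each FGF gene and KLB in the 3 comparisons, with bars for ± SE and dotted lines at -1 and 1. FGF19, FGF21, FGF2 and FGFR1 lie below -1 in Ako-3 cells and KLB at 0.50, while FGFR1 is at -3.21 and FGFR2 at 0.72 in Mko-3 cells; FGF18, and FGF21 where Mko-3 is compared, are not drawn because libraries were at the floor.

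Per gene length, the order of the levels was FGFR4, FGFR3, KLB, FGF19, FGFR2 and FGFR1 in all 3 groups, and no neighbours among these 6 overlapped in FPKM. In control cells their FPKM were 94.7 ± 7.53, 63.4 ± 6.10, 21.0 ± 0.160, 18.6 ± 0.984, 4.35 ± 0.0405 and 2.30 ± 0.196, followed by FGF21 with 0.920 ± 0.155, FGF2 with 0.430 ± 0.104 and FGF18 with 0.00921 ± 0.0160. FGF19 was thus close to KLB in control cells, whereas in Ako-3 cells FGF19 had 6.15 ± 0.696 FPKM and KLB 29.8 ± 1.11 FPKM, and in Mko-3 cells 12.6 ± 0.333 and 21.5 ± 0.290 FPKM. At the low end the order was not resolved. In Ako-3 libraries FGF2 overlapped FGF21 and FGF21 overlapped FGF18, and in Mko-3 libraries FGFR1 overlapped FGF2 and FGF18 overlapped FGF21. The order also depends on the gene length used, which was 13842 bases for FGFR1 and 7578 bases for FGFR2. In CPM, FGFR1 and FGFR2 overlapped in control libraries, with means of 32.1 and 33.3 CPM, so their order there rests on the length.

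As shares of the FPKM summed over the 4 receptors, FGFR4 held 57.5% ± 0.254 in control, 65.4% ± 0.631 in Ako-3 and 57.7% ± 1.12 in Mko-3 cells, and FGFR3 held 38.4% ± 0.503, 31.2% ± 0.850 and 37.1% ± 1.06. The share of FGFR4 was higher in every Ako-3 library than in any other library. FGFR2 held 2.65% ± 0.217 in control, 2.86% ± 0.202 in Ako-3 and 5.06% ± 0.112 in Mko-3 cells. FGFR1 fell from 1.40% ± 0.0852 of the sum in control cells to 0.457% ± 0.0301 and 0.176% ± 0.0329 in the clones. The size of each share depends on the gene length used, which among the receptors was longest for FGFR1, at 13842 bases. The sum itself was 149 to 176 FPKM in control, 153 to 158 in Ako-3 and 140 to 144 in Mko-3 libraries, so FGFR4 and FGFR3 together made up most receptor mRNA in every library. Set against FGFR4, KLB had 22.2% ± 1.68 of its FPKM in control, 29.4% ± 1.43 in Ako-3 and 26.2% ± 0.872 in Mko-3 cells, with all libraries of both clones above the control libraries.

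**Figure D3:**
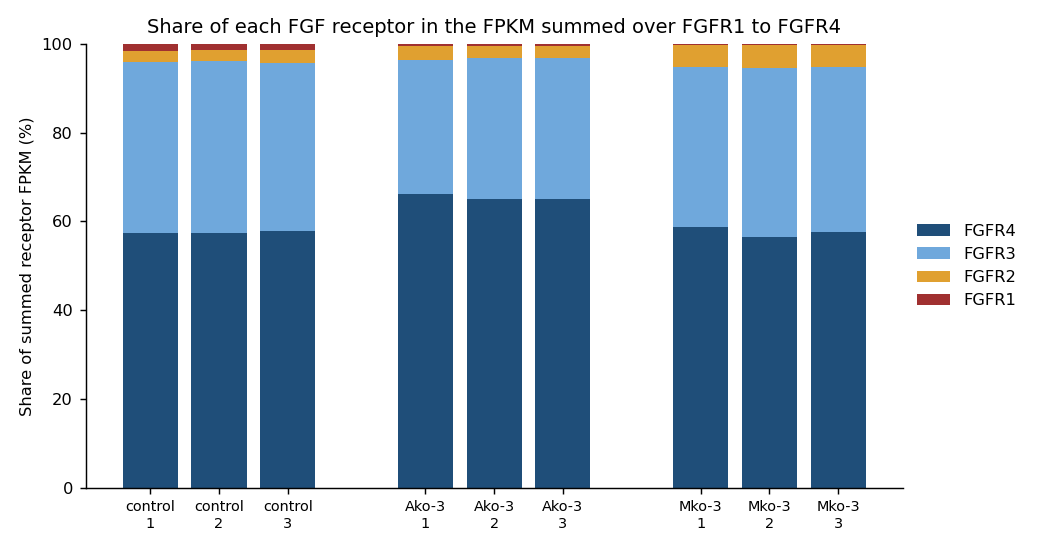
Share of each FGF receptor (vertical axis, percent) in the FPKM summed over FGFR1 to FGFR4, stacked for each of the 9 libraries. FGFR4 and FGFR3 fill most of every bar, FGFR4 is widest in Ako-3 (65.4% on average) and FGFR2 is widest in Mko-3 libraries (5.06%).

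The other genes of FGF signaling were taken from 7 lists with 138 genes in all. These lists, and the neighbours of FGF19 below, were chosen with earlier results of these data known. Their counts of calls and adjusted p values are therefore a description and no independent support. In Ako-3 cells 108 of the 138 genes passed the filter, and 14 were called, 2 higher and 12 lower. That was 12.96% of those tested, beside 8.52% of all genes. In Mko-3 cells 14 of 108 were called, 5 higher and 9 lower, or 12.96% beside 11% of all genes. Between the clones 10 of 107 were called, 7 higher and 3 lower, or 9.35% beside 5.73%. Over the tested genes of the lists the log2 fold changes had a median of -0.18 in Ako-3 and -0.08 in Mko-3 cells, beside -0.01 over all genes tested in each comparison. The adjusted p values that follow come from the same edgeR fits, by the quasi-likelihood test, and Benjamini-Hochberg adjustment ran over every gene tested.

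Of 18 further FGF ligands, 3 passed the filter in a comparison with control. FGF17, a local ligand related to FGF8, fell from 1.36 ± 0.219 CPM in control to 0.185 ± 0.0694 CPM in Ako-3 and 0.374 ± 0.0415 CPM in Mko-3 cells, with log2 fold changes of -2.82 (SE 0.47, adjusted p = 4.2e-05) and -1.84 (SE 0.40, adjusted p = 5.7e-04). In Ako-3 libraries FGF17 was near the floor of 3 counts, which lay at 0.153 to 0.183 CPM. Its log2 fold change there was -3.13 without Ako-3 replicate 2 and -2.58 without Ako-3 replicate 3. FGF12, an intracellular relative of the ligands that binds sodium channels, fell in Ako-3 cells from 5.27 ± 0.383 to 2.32 ± 0.454 CPM (log2 fold change -1.19, SE 0.21, adjusted p = 6.9e-05), while Mko-3 cells had 5.34 ± 0.750 CPM and were not called. In FGF12, Mko-3 cells exceeded Ako-3 cells by 1.19 on the log2 scale (SE 0.20, adjusted p = 9.1e-07). FGF11, from the same intracellular group, was not called, at 1.52 ± 0.293, 1.74 ± 0.444 and 1.41 ± 0.303 CPM in control, Ako-3 and Mko-3 cells. The remaining 15 ligands had at most 10 counts in any library, and FGF3, FGF4, FGF5, FGF6, FGF10, FGF16 and FGF23 had none.

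Among 11 other receptor-side and ligand-binding genes, 7 were tested. FLRT1, a membrane protein that binds FGF receptors, fell in both clones, from 7.97 ± 2.05 CPM to 1.89 ± 0.691 CPM in Ako-3 (log2 fold change -2.09, SE 0.25, adjusted p = 2.3e-06) and 1.62 ± 0.0223 CPM in Mko-3 cells (-2.31, SE 0.22, adjusted p = 1.8e-08). Its relative FLRT2 rose in Mko-3 cells by 1.31 (SE 0.25, adjusted p = 1.3e-04), from 1.45 ± 0.204 to 3.62 ± 0.609 CPM. LCTL, a klotho family protein, was scarce, at 0.309 ± 0.227 CPM in control cells, and rose by 2.11 in Mko-3 cells (SE 0.48, adjusted p = 7.7e-04), a value that ranged from 1.68 without control replicate 1 to 2.88 without control replicate 3. LCTL was also called higher in Ako-3 cells (1.29, SE 0.52, adjusted p = 0.045), but that call was lost with DESeq2 (adjusted p = 0.15) and when any Ako-3 library or control replicate 1 or 2 was left out, and its value was 2.06 without control replicate 3. KL, the coreceptor of FGF23, had no count in any library.

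Of 27 heparan sulfate proteoglycans and enzymes of heparan sulfate, 22 were tested. In Ako-3 cells 1 was called, or 4.55% beside 8.52% of all genes. It was the glypican GPC4, which fell from 15.2 ± 1.54 to 6.95 ± 0.483 CPM (log2 fold change -1.14, SE 0.13, adjusted p = 4.5e-07). In Mko-3 cells 2 were called, both higher, or 9.09% beside 11% of all genes. HS6ST2, a sulfotransferase of heparan sulfate, rose from 13.1 ± 0.506 to 35.2 ± 0.311 CPM (1.42, SE 0.09, adjusted p = 8.4e-11), and HPSE, the heparanase that cleaves it, from 1.49 ± 0.437 to 4.57 ± 0.525 CPM (1.59, SE 0.24, adjusted p = 1.1e-05). Both also exceeded Ako-3 cells, by 1.53 (SE 0.09, adjusted p = 1.4e-25) and 1.90 (SE 0.24, adjusted p = 2.7e-10), as did HSPG2, the proteoglycan perlecan, which is named after its value was seen, by 1.27 (SE 0.07, adjusted p = 3.9e-07). HSPG2 had 352 ± 29.9 CPM in control, 261 ± 24.6 CPM in Ako-3 and 632 ± 45.0 CPM in Mko-3 cells.

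All 29 adaptors and kinases that relay the signal, the adaptors FRS2 and GRB2 among them, were tested. None was called in Ako-3 cells, in Mko-3 cells or between the clones, beside 8.52%, 11% and 5.73% of all genes. The median log2 fold change of this list was -0.09 in Ako-3 and -0.01 in Mko-3 cells. Of the 16 feedback and target genes of FGF signaling tested in Ako-3 cells, 2 were called, or 12.5% beside 8.52% of all genes, and 15 had a log2 fold change below 0, with a median of -0.57 beside -0.01 over all genes. DUSP5, a dual specificity phosphatase of the nucleus, fell from 25.6 ± 0.204 to 7.98 ± 0.443 CPM (log2 fold change -1.69, SE 0.11, adjusted p = 1.2e-10), and the transcription factor MYC from 78.6 ± 10.2 to 36.2 ± 3.11 CPM (-1.12, SE 0.09, adjusted p = 5.9e-09). The Sprouty inhibitor SPRY4 lay just short of the fold threshold, at -0.99 (SE 0.11, adjusted p = 1.7e-07), and passed it with library size alone (-1.09), with at least 10 counts required in every library and without control replicate 1 or 2 or Ako-3 replicate 1 or 3. In Mko-3 cells none of 17 was called, beside 11% of all genes, 13 were below 0 and the median was -0.23. DUSP5 there was 27.0 ± 2.13 CPM, close to control, and it exceeded Ako-3 cells by 1.76 (SE 0.10, adjusted p = 7.5e-25), as did DUSP4, of the same family, by 1.13 (SE 0.07, adjusted p = 1.5e-23). These genes answer to other growth factors too, and the part of such factors in these levels was not tested.

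**Figure D4:**
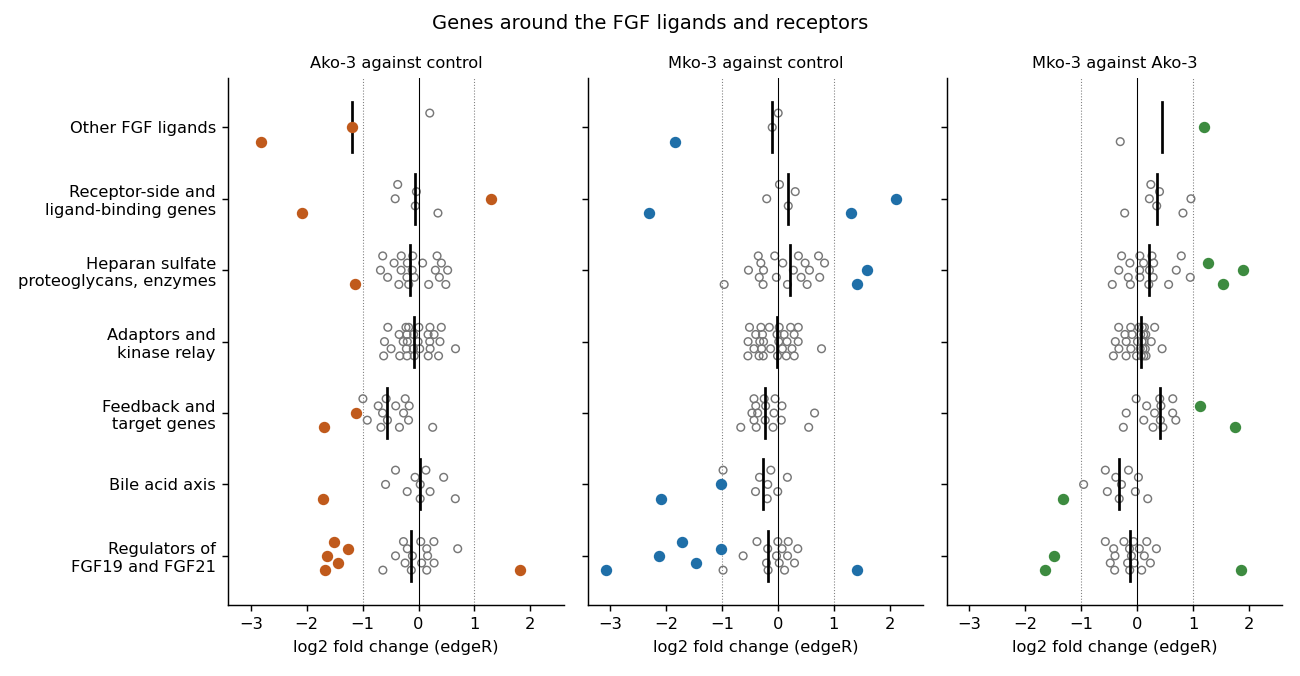
Log2 fold change (horizontal axes) of every tested gene of the 7 lists in the 3 comparisons. Filled points were called, open points were not, the black bar is the list's median and dotted lines mark -1 and 1; vertical offsets within a list carry no value. No adaptor or kinase is filled, and the median of the feedback and target genes lies at -0.57 in Ako-3 cells.

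In the bile acid axis on which FGF19 acts, 11 of 15 genes were tested in Ako-3 and 10 in Mko-3 cells. CYP7A1, the rate-limiting enzyme of bile acid synthesis that FGF19 represses in liver, had no count in any library, so its response could not be measured in these cells. SLC27A5, the ligase that activates bile acids for conjugation, fell from 3.41 ± 1.20 to 1.06 ± 0.178 CPM in Ako-3 (log2 fold change -1.71, SE 0.30, adjusted p = 8.5e-05) and 0.802 ± 0.194 CPM in Mko-3 cells (-2.09, SE 0.32, adjusted p = 1.2e-05). SLC51B, a subunit of a bile acid exporter, fell in Mko-3 cells from 32.3 ± 1.25 to 16.0 ± 1.61 CPM (-1.02, SE 0.10, adjusted p = 2.1e-08), but lay at -0.97 without Mko-3 replicate 2 or 3 and at -0.99 without control replicate 1, short of the fold threshold. NR1H4, the bile acid receptor FXR, was not called in a comparison and had 212 ± 17.8 CPM in control, 160 ± 1.84 CPM in Ako-3 and 108 ± 10.9 CPM in Mko-3 cells. It was nevertheless lower in both clones, by a log2 fold change of -0.41 (SE 0.07) in Ako-3 cells, and its libraries did not overlap between any of the groups. CYP8B1, an enzyme of cholic acid synthesis, was called lower in Mko-3 than in Ako-3 cells (-1.32, SE 0.54, adjusted p = 0.042) at 2 to 19 counts per library, with overlapping libraries, and the call was lost with DESeq2 (adjusted p = 0.22) and without Ako-3 replicate 2 or 3 or Mko-3 replicate 1 or 2, while the value was -2.26 without Mko-3 replicate 3.

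All 21 transcriptional regulators of FGF19 and FGF21 passed the filter, and in each clone 1 was called higher and 5 lower than in control cells. That was 28.6% of the list in each clone, beside 8.52% of all genes in Ako-3 and 11% in Mko-3 cells. ATF5, a stress-responsive factor related to ATF4, rose from 3.06 ± 0.436 to 10.7 ± 1.28 CPM in Ako-3 (log2 fold change 1.81, SE 0.17, adjusted p = 2.6e-08) and 8.20 ± 0.972 CPM in Mko-3 cells (1.42, SE 0.18, adjusted p = 8.7e-07). DDIT3, the stress factor CHOP, fell from 40.6 ± 1.56 to 12.8 ± 0.618 and 12.4 ± 2.15 CPM, with log2 fold changes of -1.67 (SE 0.09, adjusted p = 1.2e-11) and -1.72 (SE 0.11, adjusted p = 4.3e-11). The glucocorticoid receptor NR3C1 fell with log2 fold changes of -1.25 (SE 0.12, adjusted p = 5.1e-08) and -1.02 (SE 0.11, adjusted p = 6.4e-08), and in Mko-3 cells it lay at -0.95 without control replicate 3, -0.98 without Mko-3 replicate 1 and -0.97 without Mko-3 replicate 3. ATF4 itself, whose protein is regulated mainly in translation, was not called and had 513 ± 43.3, 478 ± 14.1 and 458 ± 6.40 CPM. MLXIPL, the carbohydrate-responsive factor ChREBP, fell in Mko-3 cells from 64.5 ± 5.80 to 14.8 ± 2.13 CPM (-2.13, SE 0.10, adjusted p = 7.3e-13) and was lower there than in Ako-3 cells (-1.49, SE 0.09, adjusted p = 1.7e-25). RORA, a nuclear receptor of the circadian system, fell in Ako-3 cells (-1.51, SE 0.19, adjusted p = 1.7e-06) and was higher in Mko-3 than in Ako-3 cells (1.87, SE 0.17, adjusted p = 2.8e-15). The others called in both clones, NR1D1 and PPARGC1A, are named after their values were seen. The circadian repressor NR1D1 had log2 fold changes of -1.63 (SE 0.16, adjusted p = 1.6e-07) and -1.46 (SE 0.15, adjusted p = 1.6e-07). The coactivator PPARGC1A had -1.44 (SE 0.33, adjusted p = 0.0011) and -3.08 (SE 0.45, adjusted p = 6.0e-06), from 2.04 ± 0.546 CPM in control to 0.754 ± 0.0878 and 0.230 ± 0.146 CPM. In Mko-3 libraries PPARGC1A was near the floor of 3 counts, which lay at 0.170 to 0.196 CPM. Its log2 fold change there was -3.44 without Mko-3 replicate 2 and -2.68 without Mko-3 replicate 3.

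FGF19 lies on 11q13, a region often amplified in tumours, and 13 neighbours were set beside it, of which 11 were tested. None of the tested neighbours had a log2 fold change as low as that of FGF19 in either clone. CCND1, the cell cycle driver cyclin D1, had 265 ± 6.53 CPM in control, 318 ± 6.87 CPM in Ako-3 and 421 ± 2.38 CPM in Mko-3 cells, log2 fold changes of 0.25 (SE 0.06, adjusted p = 0.0012) and 0.66 (SE 0.06, adjusted p = 4.5e-09) that stayed under the fold threshold. FGF4 and FGF3, the closest FGF genes, had no count in any library. In Ako-3 cells MRGPRF (1.11, SE 0.31, adjusted p = 0.0049) and the chloride channel ANO1 (1.16, SE 0.34, adjusted p = 0.0072) were called higher and MYEOV (-1.05, SE 0.39, adjusted p = 0.029) lower, each at under 50 counts per library. MYEOV was no longer called with DESeq2 (adjusted p = 0.13) or when any library but control replicate 1 was left out, and MRGPRF fell under the fold threshold in Ako-3 cells without control replicate 2 or Ako-3 replicate 1 and in Mko-3 cells without Mko-3 replicate 2. In Mko-3 cells MRGPRF was called higher (1.17, SE 0.32, adjusted p = 0.0037), and between the clones no neighbour was. The share of tested neighbours called was 27.3% in Ako-3 cells beside 8.52% of all genes, and 9.09% in Mko-3 cells beside 11%. The median log2 fold change of the tested neighbours was 0.24 in both clones against control.

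**Figure D5:**
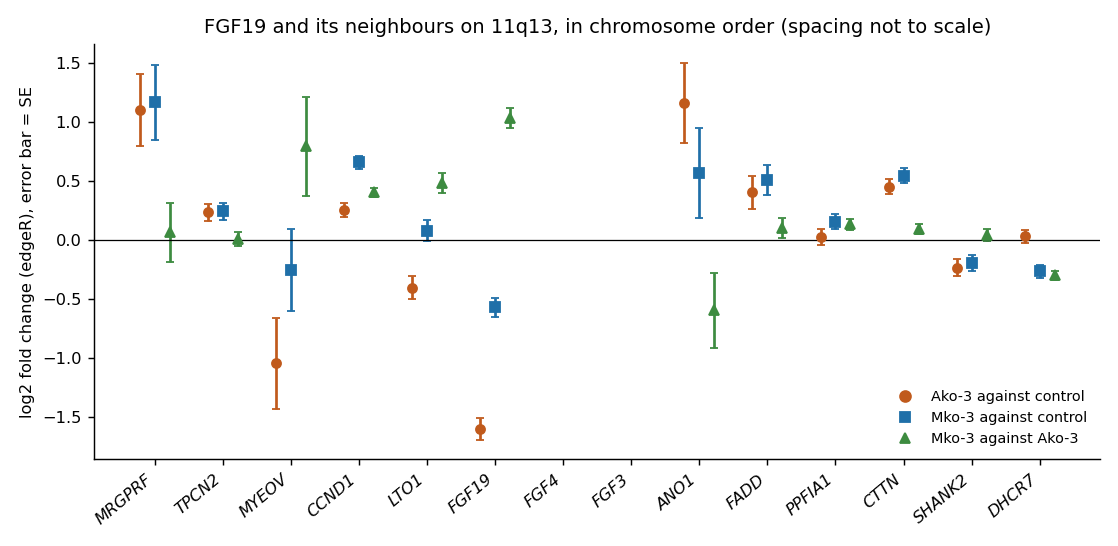
Log2 fold change from the edgeR fits (vertical axis, bars ± SE) of FGF19 and 13 neighbours in chromosome order, equally spaced, in the 3 comparisons. FGF19 stands at -1.60 in Ako-3 and -0.57 in Mko-3 cells while CCND1 stands at 0.25 and 0.66; FGF4 and FGF3 had no counts.

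The genes whose levels were most like FGF19 over the 9 libraries, by Pearson's r of log2(CPM + 1) among 10500 genes with a mean of at least 3 on that scale, were PAWR, SPRY4, KLHL36, RHOU and RERE, each with r = 0.99. The 9 points are 3 groups of 3, so r largely restates the order control, Mko-3 and Ako-3, and it is given as a description. PAWR, a regulator of apoptosis, had 119 ± 3.99, 52.1 ± 1.36 and 86.7 ± 4.98 CPM in control, Ako-3 and Mko-3 cells, and SPRY4 had 24.2 ± 0.972, 12.2 ± 0.917 and 19.0 ± 0.690 CPM. By Spearman's rank the closest 5 were GTPBP2, H6PD, TMBIM1, TGM2 and ETV4, so the names depend on the measure. Of the other FGF genes, FGF2 (r = 0.83) and FGFR3 (r = 0.81) followed FGF19 most closely, and FGF21 had 0.65 and FGFR1 0.40. KLB had r = -0.94, with higher levels in Ako-3 cells, but in Mko-3 cells it stood close to control (log2 fold change 0.03, SE 0.06).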

How the data were processed

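Polyadenylated RNA of 9 libraries was analysed, grouped by cell line and genotype in the labels. The authors aligned reads with HISAT2 2.0.5 to hg38 and deposited raw featureCounts 1.5.0-p3 counts per gene; the strand setting is not given in the sources used here. The authors also deposited FPKM, that is these counts divided by gene length and a library size over all 9 libraries. The members and lists were chosen with earlier results of these data known. Counts were fitted here with edgeR 4.0.16 in R 4.3.3 (TMM factors, filterByExpr with its minimum count at 10, quasi-likelihood F test with robust dispersion, Benjamini-Hochberg), separately for the 6 libraries of each comparison. The SE given for a log2 fold change is its absolute value divided by the square root of the F statistic. The code was tested on simulated data. A group with at most 3 counts in each library was treated as at the floor. DESeq2 1.42.0, other scalings, filters, a replicate block and leaving out libraries were alternatives. The rule named the 9 FGF genes, APOB and MTTP, every further FGF ligand that passed the filter, the 5 genes most like FGF19 and CCND1. In each list it also named up to 3 called genes per knockout and 2 between the clones with the smallest adjusted p. Other genes, among them HSPG2, NR1D1, PPARGC1A, NR1H4, ATF4, CYP7A1, KL, FRS2 and GRB2, are named outside this rule. Libraries of 1 group differed beyond sampling noise. Their chi-square per degree of freedom was 6.93 to 8.88 in control, 3.12 to 3.45 in Ako-3 and 2.43 to 2.84 in Mko-3 libraries. Promoter windows came from RefSeq.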

Additional observations from a re-analysis of the deposited data

Results flagged for a closer look

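Of the 10 genes of the lists called between the clones, 8 are named by the rule, and their difference was tested directly by edgeR's quasi-likelihood test. Higher in Mko-3 than in Ako-3 cells were FGF12 by a log2 fold change of 1.19, HS6ST2 by 1.53, HPSE by 1.90, DUSP5 by 1.76, DUSP4 by 1.13 and RORA by 1.87. Lower in Mko-3 cells were CYP8B1, with -1.32, and MLXIPL, with -1.49.

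In CPM, FGFR4 was below every control library in all Mko-3 libraries, where its mean was 401 CPM. All Ako-3 libraries were above every control library, but the closest stood at 490.06 against 490.02 CPM. The placing was not tested, and in FPKM the lowest Ako-3 library, at 99.96, lay below the highest control library, at 100.7. With library size alone the log2 fold change in Ako-3 cells was about 0, so FGFR4 has no direction in that clone.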

How the results depend on the processing

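Requiring at least 10 counts in every library lowered the genes called to 841 in Ako-3 against control, 1113 in Mko-3 against control and 511 in Mko-3 against Ako-3, since fewer genes were tested. Library size alone moved the median of all genes to -0.10 in Ako-3 cells and lowered the share of calls that were higher from 41.3% to 30.8%. It gave FGF19 in Mko-3 cells a log2 fold change of -0.64. The other counts of called genes stayed within 1.5 times under the alternatives run. Leaving out 1 library gave 1254 to 1637, 1623 to 2106 and 895 to 964 genes called, 13 to 15, 13 to 16 and 9 to 13 genes of the lists, and log2 fold changes of FGF19 of -1.69 to -1.54, -0.60 to -0.54 and 0.98 to 1.13.

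Same-numbered libraries did not deviate together, with correlations of -0.26 to 0.19, so the numbers do not pair them. With the replicate block, 1336, 1730 and 899 genes were called, with 14, 14 and 10 in the lists, and FGF19 stood at -1.60, -0.57 and 1.03.

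Of the calls named by the rule, LCTL, MRGPRF and MYEOV in Ako-3, SLC51B, NR3C1 and MRGPRF in Mko-3 and CYP8B1 between the clones were lost under at least 1 alternative, and none of these calls changed direction; FGF19 between the clones, described without a test, came under the fold threshold without Ako-3 replicate 2 (0.98) or 3; scarce genes such as FGF17 had no value under the stricter filter. Low counts of FGF21, FGF2 and FGF18 limit what can be said of them.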
